A study of Setaria viridis with 9 samples.

Results

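The genes described here carry nitrate, ammonium and sulfate into plant cells and build them into amino acids. They were chosen by words in the deposited gene descriptions, such as nitrate reductase, NRT, glutamine synthetase, sulfate transporter and cysteine synthase. No measured value entered this rule, but earlier results of these data were known when it was made. The words found 103 of the 17987 genes, of which 101 passed the filter on low counts. Of these, 2 matched only as part of a longer word: LOC117838396 and LOC117840612 are described as folylpolyglutamate synthase-like, enzymes of folate metabolism, and they are counted but not discussed further. The remaining members fall into 15 classes by role.

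Polyadenylated RNA was sequenced from leaf discs of Setaria viridis, a small C4 grass, cultivar ME034V-1. The labels give 3 groups of 3 biological replicates: unedited wild type plants (WT), plants edited to carry null alleles of NdhO (ndhO) and plants edited to carry null alleles of PGR5 (pgr5). All plants were grown for 3 to 4 weeks in pots with fertiliser, with 16 h of light at 380 µmol per square metre per second and 28 °C and 8 h of dark at 22 °C, and discs came from the youngest fully expanded leaves in the light. The sources used here do not say how many edited lines stand behind a label. NdhO is a subunit of the chloroplast NDH complex and PGR5 is a thylakoid protein, and each belongs to a route of cyclic electron flow around photosystem I.

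Nitrate enters cells through NRT2 carriers and through members of the large NRT1/PTR family (NPF), which in other plants also move peptides and hormones. Nitrate reductase in the cytosol turns nitrate into nitrite, and nitrite reductase in the plastid turns nitrite into ammonium. Glutamine synthetase and glutamate synthase then fix ammonium into glutamine and glutamate. Glutamine-hydrolyzing asparagine synthetase uses glutamine in making the transport amide asparagine. Sulfate is activated by ATP sulfurylase, reduced by adenylylsulfate reductase and sulfite reductase, and joined to O-acetylserine, the product of serine acetyltransferase, by cysteine synthase. Nitrite reductase, ferredoxin-dependent glutamate synthase and sulfite reductase take electrons from ferredoxin, the carrier that also feeds cyclic electron flow. In maize, another C4 grass, nitrate reduction is placed mainly in mesophyll cells and the first steps of sulfate reduction in bundle sheath cells.

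Library totals ran from 11606570 to 18837265 counts, and Spearman correlations of all genes between pairs of libraries lay between 0.921 and 0.977. The labels were checked on NdhO and PGR5 themselves, whose transcripts did not follow them. NdhO (LOC117858157) was at 44.3, 617 and 230.0 CPM (counts relative to the TMM-scaled library size) in the libraries labelled WT 1, 2 and 3, at 245, 443 and 446 CPM under the ndhO label, and at 421, 20.5 and 48.4 CPM under the pgr5 label. PGR5 (LOC117861247) was at 376, 46.5 and 42.8 CPM in the libraries labelled WT, at 38.1, 318 and 338 CPM under the ndhO label, and at 287, 250 and 389 CPM under the pgr5 label. Each transcript was thus low in 3 libraries, none of them under the label that names it. Whether library labels or count columns were exchanged before deposit was not tested, so a label may not give a library's genotype, and every direction below is one between labels only. Each label held libraries both low and high in NdhO or PGR5. Tests between labels, and labels that overlap, therefore cannot show whether either edit changed a member. The mesophyll enzyme of C4 leaves pyruvate, phosphate dikinase 2 (LOC117850669) ran from 31140 to 49093 CPM. All 15 bundle sheath and all 14 mesophyll marker genes had counts in at least some libraries. That cannot test leaf identity, because each of the 17987 genes had counts in some library.

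No member of the nitrogen and sulfur pathways passed the test for a difference between labels. edgeR's quasi-likelihood test with Benjamini-Hochberg adjustment called 0 of 101 members in each of the 3 comparisons (ndhO with WT, pgr5 with WT, pgr5 with ndhO), where the background over all 17970 genes was 0% in each comparison. DESeq2 and limma-voom also called 0 members in each, while DESeq2 called 0.0948%, 0.0335% and 0.0781% of all genes in the same order. Most values below therefore describe levels in the 9 libraries. Among 86 members with at least 1 CPM in every library, the highest library exceeded the lowest 2.09-fold in the median, against 1.91-fold over 14151 genes that met the same limit. That ratio was at least 2-fold for 46 members (53.5%, against 45.4% of those genes) and at least 4-fold for 15 (17.4% against 8.56%), shares that were not tested against each other. It ran from 1.24 for the asparagine synthetase domain-containing protein LOC117848181 to 37.7 for the asparagine synthetase-like gene LOC117849985.

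**Figure D1:**
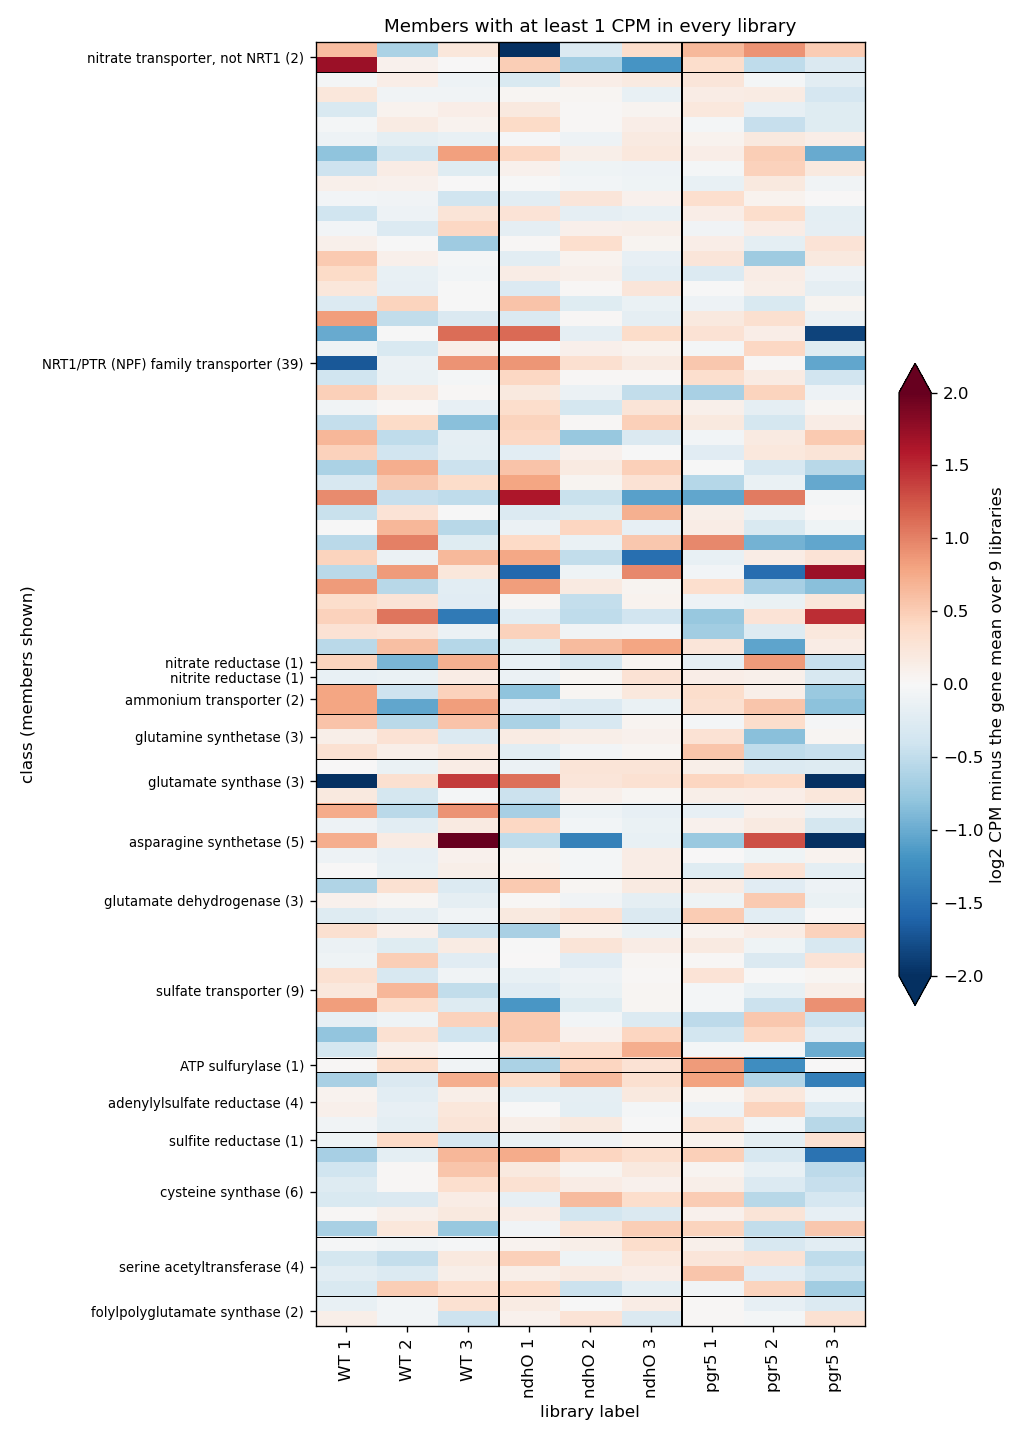
Deviation of each of 86 members (rows, grouped by class, with the number shown in parentheses) from its own mean over 9 libraries (columns), in log2 CPM; colours saturate at ±2. Rows change colour within the 3 libraries of a label. The library labelled pgr5 3 is the lowest of all 9 for 22 of the 86 members. The share of all genes lowest in that library was not counted, so this may not be particular to the members.

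Nitrate carriers open the pathway. The probable high-affinity nitrate transporter NRT2.4 (LOC117854922) was at 14.8, 6.26 and 11.4 CPM in the libraries labelled WT 1, 2 and 3, at 1.92, 8.00 and 12.4 CPM under the ndhO label, and at 15.3, 18.0 and 13.7 CPM under the pgr5 label. All 3 libraries labelled pgr5 lay above all 3 labelled ndhO, and ndhO 1 was the lowest of the 9. The fitted difference for pgr5 against ndhO was 1.08 on the log2 scale with a standard error of 0.55 (edgeR adjusted p = 1.00). A second gene was grouped with it by its description, probable peptide/nitrate transporter At3g43790 (LOC117859244), which does not name it an NRT2 carrier. It differed by 0.18 in that comparison.

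The NPF family made up 49 members, of which 47 were tested. The NPF2.13-like gene (LOC117856643), whose Arabidopsis counterpart loads nitrate into the phloem of older leaves, had the most counts of the family and was at 130.5 ± 11.4 CPM under the WT label, 133 ± 23.2 under ndhO and 131 ± 21.1 under pgr5 (SD, n = 3). The NPF8.1-like gene (LOC117857567), a dipeptide carrier in Arabidopsis, was at 80.6 ± 9.87, 77.5 ± 5.59 and 78.7 ± 14.6 CPM (SD, n = 3). For these genes the label means differed by less than the spread among replicates. The family's median log2 fold change was 0.11 for ndhO and -0.04 for pgr5 against WT, and -0.13 for pgr5 against ndhO.

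Some NPF genes of low level showed larger differences without passing the test. NPF6.1 (LOC117857275) was at 2.26, 0.850 and 4.83 CPM in the libraries labelled WT and at 12.4, 4.90 and 7.14 CPM under the ndhO label, with 4.22, 5.87 and 2.51 CPM under the pgr5 label. Every library labelled ndhO lay above every library labelled WT, the closest being ndhO 2 and WT 3. The fitted log2 difference was 1.63 with a standard error of 0.59 (edgeR unadjusted p = 0.0205, adjusted p = 1.00).

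The NPF5.10-like gene LOC117854811 was at 1.47, 3.79 and 6.05 CPM in the libraries labelled WT, at 6.72, 2.69 and 3.24 CPM under the ndhO label, and at 1.92, 1.49 and 0.876 CPM under the pgr5 label. The libraries labelled pgr5 lay below all those labelled ndhO and overlapped those labelled WT. The log2 differences were -1.39 against WT and -1.55 against ndhO, each with a standard error of 0.59 (edgeR adjusted p = 1.00 for both). A further NPF5.10-like gene, LOC117848965, named after its values were seen, differed by -0.77 and -0.94 in these comparisons, with libraries at 6.30, 8.53 and 4.62 CPM under the pgr5 label.

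Other NPF values depended on single libraries. The NPF3.1-like gene LOC117849868 was at 17.7, 4.33 and 0.491 CPM in the libraries labelled WT 1, 2 and 3, at 2.06, 2.98 and 3.09 CPM under the ndhO label, and at 1.76, 3.05 and 24.3 CPM under the pgr5 label. WT 1 and pgr5 3 stood far above the rest, and all groups overlapped. The log2 difference for ndhO against WT was -1.48 and became 0.16 without WT 1, and that for pgr5 against ndhO was 1.84 and became -0.18 without pgr5 3. Its direct neighbour in the RefSeq gene order, the NPF3.1-like gene LOC117849867, was also highest in pgr5 3 (9.06 CPM) and lowest in WT 3 (1.23 CPM). These copies are alike in name, so reads could have been split between them.

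The NPF4.3-like gene LOC117862707 was at 2.94, 7.65 and 4.99 CPM under the WT label, at 1.44, 4.03 and 8.32 CPM under ndhO, and at 4.11, 1.49 and 14.02 CPM under pgr5. Every label held both a low and a high library. The 3 NPF6.3-like genes, counterparts of the Arabidopsis nitrate carrier and sensor NRT1.1, were chosen after their values were seen. LOC117839857 and LOC117840543 are neighbours in the RefSeq gene order, while LOC117860934 lies elsewhere. LOC117839857 was at 32.0, 43.3 and 98.2 CPM under WT, at 74.2, 60.4 and 64.5 under ndhO, and at 61.3, 78.3 and 27.6 under pgr5. LOC117840543 was at 12.2, 24.4 and 53.2 CPM under WT, at 53.4, 21.7 and 31.5 under ndhO, and at 29.9, 26.8 and 6.78 under pgr5. Both of these were lowest in pgr5 3 and next lowest in WT 1. LOC117860934 did not share that order: it was at 24.2, 39.97 and 29.4 CPM under WT, at 43.7, 24.9 and 26.8 under ndhO, and at 27.3, 23.7 and 30.7 under pgr5, with pgr5 3 the third highest of the 9.

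Nitrate reductase (LOC117860413), which commits nitrate to assimilation, varied more than nitrite reductase (LOC117839299), the step that follows it. Nitrate reductase was at 919.9, 359 and 1110.1 CPM in the libraries labelled WT, at 606, 529 and 701 CPM under the ndhO label, and at 595, 1212 and 489.9 CPM under the pgr5 label. The WT and pgr5 labels each held high and low libraries, and the libraries labelled ndhO lay between them. Nitrite reductase was at 190.1, 192 and 233 CPM under WT, at 194, 217 and 259 CPM under ndhO, and at 230.3, 227 and 169 CPM under pgr5. The highest library exceeded the lowest 3.38-fold for nitrate reductase and 1.53-fold for nitrite reductase. For ndhO against WT, nitrate reductase differed by -0.38 on the log2 scale with a standard error of 0.43, and nitrite reductase by 0.13 with a standard error of 0.18 (edgeR adjusted p = 1.00 for both). For pgr5 against WT the differences were -0.06 and 0.03.

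A list of 14 senescence-related genes had its highest summed levels in pgr5 2 (1868 CPM) and WT 1 (1796 CPM) and its lowest in WT 2 (1382 CPM). Nitrate reductase was likewise highest in pgr5 2 and lowest in WT 2, although WT 3 was second for nitrate reductase and not for the list. A list of 14 clock genes had its highest sums in pgr5 2 (2734 CPM), WT 3 (2534 CPM) and WT 1 (2289 CPM). Nitrate reductase had the same order at the top. Both were lowest in WT 2, at 2131 CPM for the clock genes. The part of either list in the result was not tested.

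Ammonium transporter 1 member 1 (LOC117865252), an ammonium uptake carrier, was at 46.7, 20.3 and 37.3 CPM in the libraries labelled WT, at 15.6, 28.0 and 31.4 CPM under the ndhO label, and at 34.8, 29.3 and 16.2 CPM under the pgr5 label. Ammonium transporter 2 member 1 (LOC117846954) was at 20.8, 5.88 and 21.4 CPM, at 10.2, 9.92 and 10.98 CPM, and at 14.9, 17.6 and 6.84 CPM in the same order. Within the WT label both were high in WT 1 and WT 3 and low in WT 2, as was nitrate reductase, and the labels overlapped.

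Chloroplast glutamine synthetase (LOC117850814), which captures ammonium from nitrite and photorespiration, was also high in WT 1 and WT 3 and low in WT 2. It was at 436, 202 and 435 CPM under the WT label, at 188, 233.7 and 302 CPM under ndhO, and at 285, 374 and 289 CPM under pgr5. The log2 difference for ndhO against WT was -0.57 with a standard error of 0.29 (edgeR adjusted p = 1.00). Glutamine synthetase root isozyme 5 (LOC117840799) was at 213 ± 40.8, 221 ± 5.07 and 189.8 ± 68.5 CPM under WT, ndhO and pgr5 (SD, n = 3), with its lowest library, pgr5 2, at 114 CPM.

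Ferredoxin-dependent glutamate synthase (LOC117843736), the main leaf form of the enzyme, varied little, 1.45-fold between its highest and lowest library. It was at 1024, 928 and 1135 CPM in the libraries labelled WT, at 941, 1228 and 1216 CPM under the ndhO label, and at 1109, 847 and 851 CPM under the pgr5 label. The labels overlapped, and the log2 differences were 0.13 for ndhO and -0.14 for pgr5 against WT, each with a standard error of 0.20. The NADH-dependent glutamate synthase 2 (LOC117848374) behaved differently among libraries, at 16.8, 87.1 and 184 CPM under WT, at 149.9, 81.8 and 86.3 CPM under ndhO, and at 93.9, 92.1 and 15.4 CPM under pgr5. WT 1 and pgr5 3 were low and WT 3 was high, an 11.97-fold range with no separation by label.

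Asparagine synthetase gave the largest difference against WT of any member with at least 1 CPM on average, and it did not pass the test. The asparagine synthetase-like gene LOC117849985 was at 24.3, 16.5 and 110.0 CPM in the libraries labelled WT, at 10.4, 5.78 and 13.3 CPM under the ndhO label, and at 8.80, 35.9 and 2.92 CPM under the pgr5 label. All libraries labelled ndhO lay below all labelled WT, while those labelled pgr5 overlapped both. The log2 difference was -2.36 for ndhO against WT with a standard error of 1.02 (edgeR unadjusted p = 0.0501, adjusted p = 1.00), and -1.06 without WT 3. It was -1.67 for pgr5 against WT with a standard error of 0.99.

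The asparagine synthetase 1-like gene LOC117839040, with the most counts of the class, was at 567, 233.8 and 633 CPM under WT, at 213, 314 and 301 CPM under ndhO, and at 300.3, 363 and 313 CPM under pgr5. WT 1 and WT 3 were the highest of the 9 libraries and WT 2 was the second lowest. The log2 difference for ndhO against WT was -0.79 with a standard error of 0.32 (edgeR unadjusted p = 0.0343, adjusted p = 1.00), and that for pgr5 against WT was -0.55. Asparagine synthetase 2 (LOC117838889) differed by 0.13 and 0.02 in these comparisons, from 56.8 ± 8.36 CPM under WT (SD, n = 3).

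Glutamate dehydrogenase (LOC117838564), which releases or fixes ammonium on the glutamate skeleton, was at 87.0, 163 and 109 CPM in the libraries labelled WT, at 191, 136 and 150.3 CPM under the ndhO label, and at 148, 114 and 123 CPM under the pgr5 label. It was low in WT 1 and WT 3, where asparagine synthetase was high. The log2 difference for ndhO against WT was 0.41 with a standard error of 0.23 (edgeR adjusted p = 1.00).

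**Figure D2:**
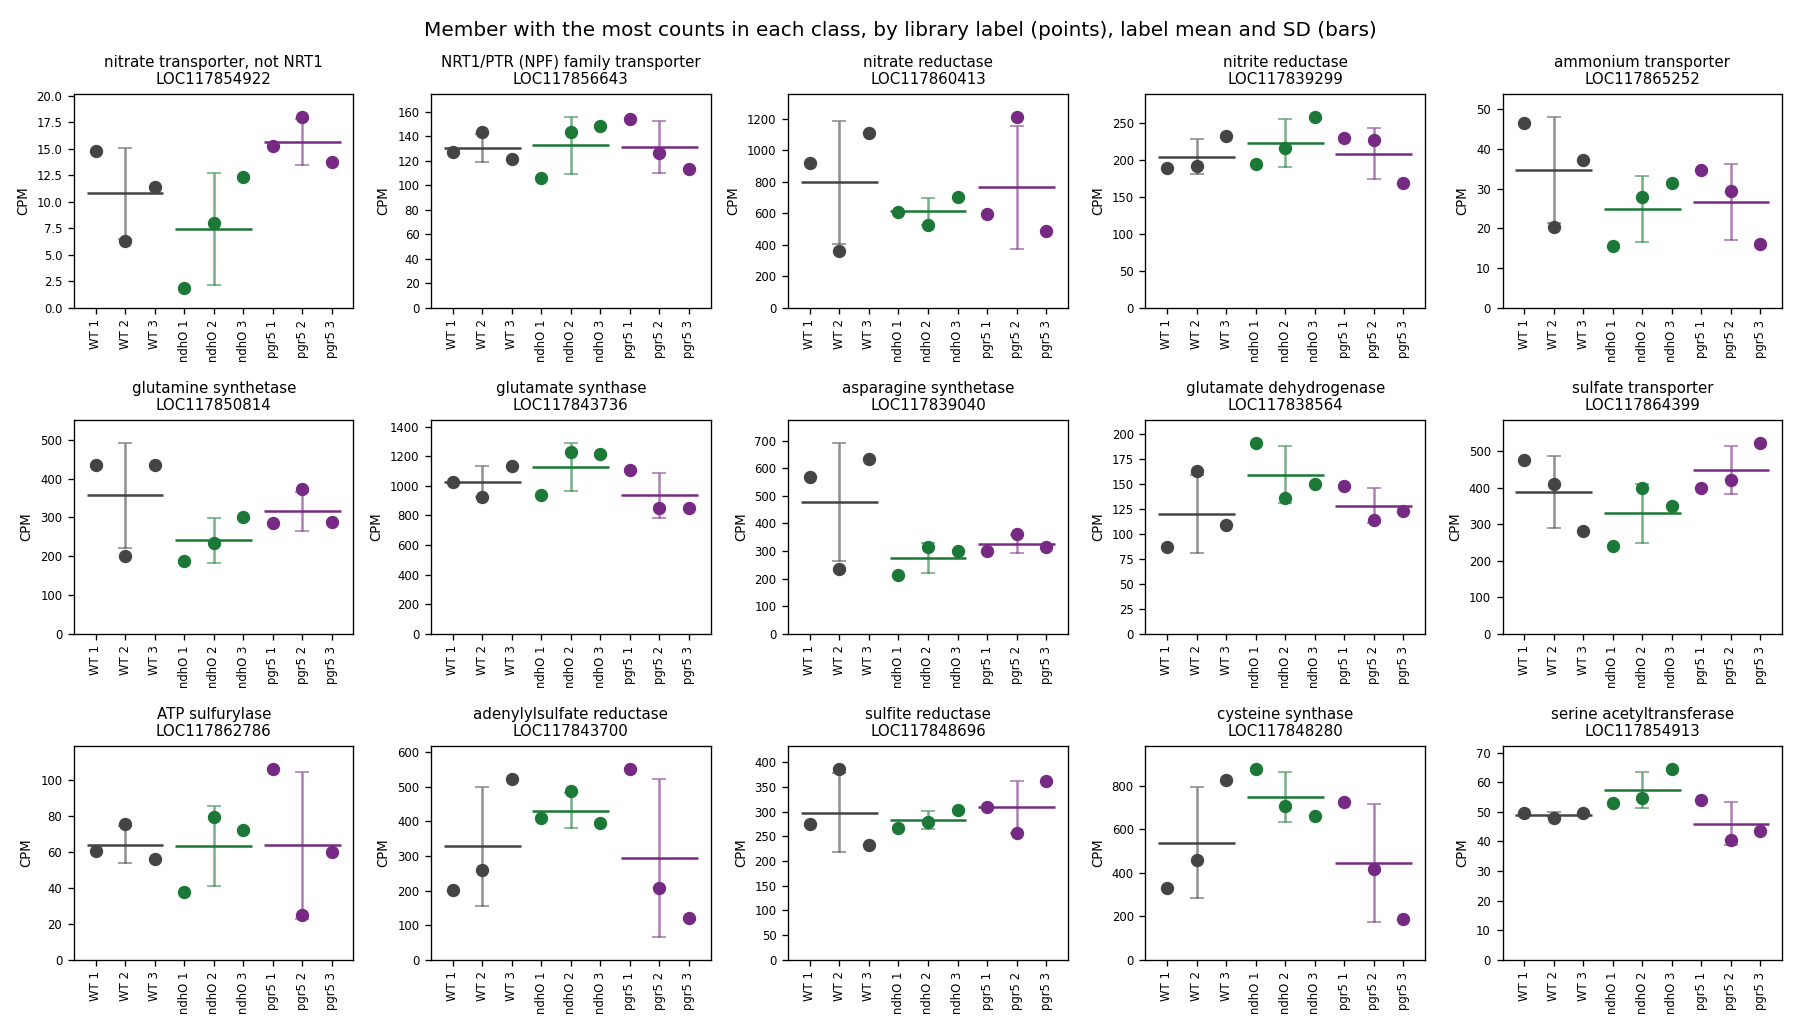
CPM of the member with the most counts in each of 15 classes (panels), by library (points, coloured by label); horizontal lines are label means and bars are SD over 3 libraries. Nitrate reductase spans 359 to 1212 CPM with high and low libraries under both the WT and pgr5 labels, while nitrite reductase stays between 169 and 259 CPM.

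On the sulfur side, sulfate carriers numbered 10 members. Probable sulfate transporter 3.3 (LOC117864399), of a group that carries sulfate into chloroplasts in Arabidopsis, was at 476, 409.7 and 281 CPM under the WT label, at 242, 400.2 and 350.2 CPM under ndhO, and at 401, 422 and 523 CPM under pgr5. The libraries labelled pgr5 lay just above all those labelled ndhO, with pgr5 1 and ndhO 2 nearly equal. The log2 difference for pgr5 against ndhO was 0.44 with a standard error of 0.25 (edgeR adjusted p = 1.00). The sulfate transporter 4.1-like gene LOC117846200, whose Arabidopsis counterpart releases sulfate from the vacuole, was at 82.3 ± 12.2, 94.2 ± 8.72 and 82.0 ± 14.04 CPM under WT, ndhO and pgr5 (SD, n = 3).

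The sulfate transporter 2.1-like gene LOC117836284, named after its values were seen, had 0 counts in all 3 libraries labelled pgr5. Under the WT label it had 47, 12 and 0 counts, and under the ndhO label 16, 0 and 18. Counts were pooled over each label, with a floor of 3 counts for pgr5. On that basis its level under pgr5 was at least 21.6-fold lower than under WT and at least 12.2-fold lower than under ndhO. Pooling leaves out the spread between libraries, so these are not limits on a difference between labels. These limits lean on few counts: without WT 1 the first was 7.73-fold, without pgr5 1 the limits were 13.3-fold and 7.48-fold, without pgr5 3 they were 14-fold and 7.89-fold, and without ndhO 2 the second was 19.6-fold. Libraries at 0 also occurred under WT and ndhO, so the labels overlapped, and edgeR's adjusted p was 1.00 in both comparisons.

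ATP sulfurylase (LOC117862786), the single member that activates sulfate, was at 60.3, 75.6 and 56.0 CPM under WT, at 37.9, 79.3 and 72.1 CPM under ndhO, and at 106, 24.9 and 59.6 CPM under pgr5. Its highest and lowest libraries, pgr5 1 and pgr5 2, shared a label. The label means were 64.0, 63.1 and 63.5 CPM.

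Adenylylsulfate reductase 1 (LOC117843700), the step held to control sulfate reduction in plants, was at 201, 258 and 523 CPM in the libraries labelled WT, at 410.1, 488 and 394 CPM under the ndhO label, and at 551, 209 and 122 CPM under the pgr5 label. It was high in pgr5 1 and WT 3 and low in pgr5 3 and WT 1, and the libraries labelled ndhO lay within that range. The log2 difference was 0.40 for ndhO and -0.15 for pgr5 against WT, each with a standard error of 0.53. The adenylylsulfate reductase-like gene LOC117839408, of a group named for its likeness and not known here to reduce sulfate, ranged only 1.34-fold. Sulfite reductase (LOC117848696) was at 275, 387 and 233 CPM under WT, at 266, 279 and 304 CPM under ndhO, and at 309, 256 and 362 CPM under pgr5. Its highest library was WT 2 and its lowest WT 3, and the labels overlapped.

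Cysteine synthase (LOC117848280), which completes sulfur assimilation, was at 331, 459 and 825 CPM in the libraries labelled WT, at 877, 706 and 663 CPM under the ndhO label, and at 727, 418 and 187 CPM under the pgr5 label. WT 3, ndhO 1 and pgr5 1 were each the highest of their label, and the labels overlapped. The log2 difference was 0.48 for ndhO and -0.28 for pgr5 against WT, each with a standard error of 0.47. The bifunctional cyanoalanine and cysteine synthase LOC117863762, a mitochondrial enzyme that detoxifies cyanide, was at 308, 409 and 591 CPM, at 462, 421 and 463 CPM, and at 419.6, 363 and 282 CPM in the same order. Its libraries labelled pgr5 lay below all those labelled ndhO, by -0.34 on the log2 scale with a standard error of 0.24 (edgeR adjusted p = 1.00).

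A plastid cysteine synthase-like gene, LOC117851469, gave the lowest p of any member in both comparisons of pgr5. It was at 1.47, 0.928 and 1.96 CPM under WT, at 1.92, 1.11 and 0.884 CPM under ndhO, and at 2.83, 3.52 and 5.90 CPM under pgr5. All 3 libraries labelled pgr5 lay above the other 6. The log2 difference was 1.49 against WT (edgeR unadjusted p = 0.0162) and 1.64 against ndhO (edgeR unadjusted p = 0.00994), each with a standard error of 0.52 and an adjusted p of 1.00. The gene lies beside other cysteine synthase-like genes in the RefSeq gene order, LOC117853030 and LOC117854068, so its counts are uncertain where reads were shared. LOC117853030, the neighbour with more counts, was at 24.4 ± 4.62, 33.2 ± 8.84 and 25.9 ± 10.8 CPM under WT, ndhO and pgr5 (SD, n = 3), with overlapping labels.

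Serine acetyltransferase 1 (LOC117854913), which makes O-acetylserine, was at 49.5, 48.1 and 49.5 CPM in the libraries labelled WT, at 53.1, 54.8 and 64.5 CPM under the ndhO label, and at 54.1, 40.5 and 43.5 CPM under the pgr5 label. The libraries labelled ndhO lay above all labelled WT, by 0.23 on the log2 scale with a standard error of 0.15 (edgeR adjusted p = 1.00). Serine acetyltransferase 4 (LOC117839640) was at 31.4 ± 8.33, 41.5 ± 8.09 and 36.9 ± 10.3 CPM under WT, ndhO and pgr5 (SD, n = 3).

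For ndhO against WT, 2 of 101 members had an edgeR unadjusted p under 0.05, where 2.74% of all genes did. That count was 10 without WT 2, 5 without WT 3 and 1 without ndhO 3, while the share of all genes was 4.83%, 3.25% and 2.57%. Libraries did not overlap for 6 members higher under ndhO (background 4.56%) and 3 lower (4.07%). Fitted values were above 0 for 57 of 101 members, against 49.5% of all genes, and the median was 0.06 on the log2 scale against -0.00 for all genes. Without ndhO 1 the members' median was 0.03, and without WT 3 it was 0.11. By class, 7 of 9 cysteine synthase members and 3 of 4 serine acetyltransferase members had fitted values above 0, and 3 of 4 ammonium transporters below it. The cysteine synthase count includes members with means of 0.69 and 0.65 CPM and standard errors of 1.56 and 1.54. The ammonium transporter count includes a member at -1.02 with a standard error of 1.56 and 0 counts in WT 2 and WT 3. The larger classes were mixed, with 28 NPF genes above 0 and 19 below, and 4 sulfate transporters above and 6 below.

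For pgr5 against WT, 4 members had an edgeR unadjusted p under 0.05 (background 2.06%). That count was 8 without pgr5 1 and 1 without pgr5 3, where the background was 3.4% and 1.85%. Libraries did not overlap for 3 members higher (background 3.38%) and 1 lower (2.94%). Fitted values were above 0 for 42 of 101 members (background 50.6%), with a median of -0.04 against 0.00 for all genes. The members' median was -0.08 without pgr5 1, 0.01 without WT 3 and 0.04 without pgr5 3. The lower member without overlap was the NPF5.2-like gene LOC117838519, named after its values were seen, with 63.2, 47.3 and 55.1 CPM under pgr5 against 63.8, 72.8 and 68.6 CPM under WT.

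For pgr5 against ndhO, 5 members had an edgeR unadjusted p under 0.05 (background 2.67%). That count was 13 without pgr5 1 (background 4.67%), 3 without ndhO 1 (2.39%) or pgr5 2 (2.57%), and 1 without pgr5 3 (1.87%). Libraries did not overlap for 4 members higher (background 4.15%) and 7 lower (4.1%). The lower ones included 5 NPF genes, a family that held 47 of the 101 tested members. Among these 5 is a gene with a mean of 0.90 CPM and 0 counts in pgr5 2. Fitted values were above 0 for 43 of 101 members (background 51.5%), with a median of -0.09 against 0.01 for all genes. The members' median was -0.14 without pgr5 1 and -0.01 without pgr5 3. The comparisons share libraries, so they are not independent of each other.

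**Figure D3:**
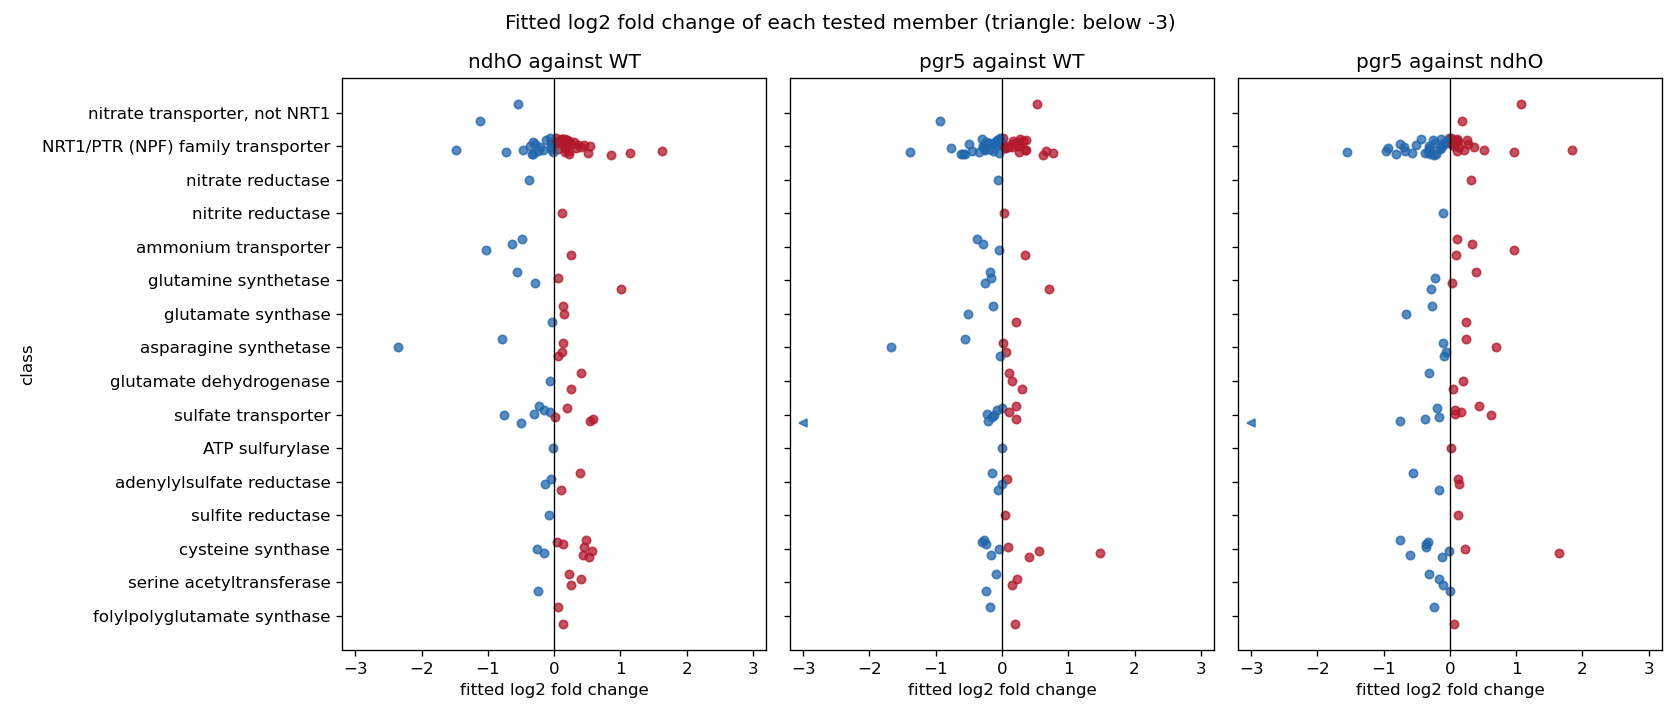
Fitted log2 fold change of each of 101 tested members (points) by class for the 3 comparisons of labels; red is above 0, blue below, and the triangles mark the sulfate transporter 2.1-like gene, whose counts are 0 in all 3 libraries labelled pgr5. Points lie on both sides of 0 in the large classes, and 0 members passed edgeR's test.

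Across libraries, the summed levels of some classes varied together. Over 9 pairs of classes, log2 of summed CPM was compared across the 9 libraries with exact two-sided permutation tests. The pairs were chosen with earlier results of these data known, which the p-values do not take into account. Asparagine synthetase and glutamate dehydrogenase were inversely related, with Pearson's r = -0.84 (exact permutation p = 0.00302, Benjamini-Hochberg adjusted 0.0136) and Spearman's rho = -0.87 (p = 0.00451, adjusted 0.0406). The asparagine synthetase sum ran from 339 CPM in WT 2 to 855 CPM in WT 3, and the glutamate dehydrogenase sum from 116 CPM in WT 1 to 222 CPM in ndhO 1. Most of each sum came from 1 gene, LOC117839040 (mean 360 CPM) and LOC117838564 (mean 136 CPM). LOC117849985 was highest in WT 3, as LOC117839040 was. Asparagine synthetase 2 (LOC117838889) was instead highest in ndhO 1 (77.3 CPM), where LOC117839040 was lowest (213 CPM). Single members were not tested in this way. Without WT 1 and WT 3, the libraries farthest from the median of asparagine synthetase, r was -0.79 over 7 libraries and the adjusted exact permutation p was 0.289, so the call was not kept. With WT 1 alone left out r was -0.80 (adjusted exact permutation p = 0.0599), and with WT 3 alone left out it was -0.92 (adjusted 0.00993). The Spearman call was lost in 6 of the 9 fits that left out 1 library, with adjusted exact permutation p up to 0.138.

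Serine acetyltransferase and cysteine synthase, the paired enzymes of cysteine synthesis, were positively related, with r = 0.88 (exact permutation p = 0.00200, adjusted 0.0136) and rho = 0.82 (p = 0.0108, adjusted 0.0485). The cysteine synthase sum ran from 645 CPM in pgr5 3 to 1677 CPM in WT 3. Without ndhO 1 and pgr5 3, r was 0.74 over 7 libraries with an adjusted exact permutation p of 0.301, so this call was not kept either. Pearson's call was also lost without WT 1 (adjusted exact permutation p = 0.0599) and without pgr5 3 (0.119). The Spearman call was lost in 6 of the 9 fits that left out 1 library, with adjusted exact permutation p up to 0.206, and on DESeq2 size factors (0.0775). For both pairs fewer libraries also raise p, so the part of single libraries in the lost calls was not tested. Nitrite reductase and glutamate synthase had r = 0.74 (adjusted exact permutation p = 0.0724). The adjusted exact permutation p of Pearson's r was 0.315 or more for the other 6 pairs, among them nitrate with nitrite reductase (r = 0.44) and ATP sulfurylase with adenylylsulfate reductase (r = 0.33). The labels name no batch, and 3 libraries are too few for a correlation within a single label. Over all 9 libraries as deviations from their label means, r was -0.79 for asparagine synthetase and glutamate dehydrogenase (adjusted exact permutation p = 0.0394) and 0.89 for serine acetyltransferase and cysteine synthase (adjusted 0.0152). Glutamine synthetase and glutamate synthase had r = 0.37 as levels and 0.71 as such deviations (adjusted exact permutation p = 0.0889). These p-values treat the deviations as independent, which those of 1 label are not. Because a label may not give a library's genotype, the deviations may still hold differences between genotypes.

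**Figure D4:**
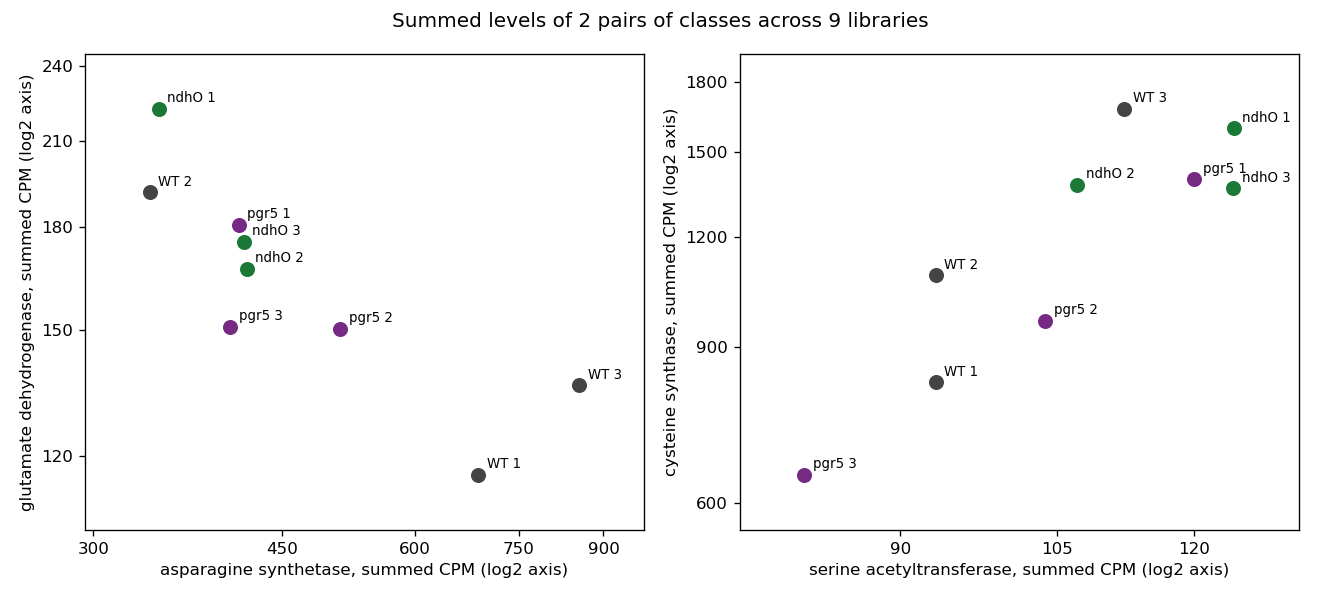
Summed CPM of asparagine synthetase against glutamate dehydrogenase (left) and of serine acetyltransferase against cysteine synthase (right), on log2 axes, for 9 libraries coloured by label. WT 1 and WT 3 form the lower right end of the left panel, and pgr5 3 is the lowest library of the right panel at 645 CPM of cysteine synthase.

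Marker genes of leaf cell types also differed between libraries. The 15 bundle sheath genes summed to between 16176 and 26853 CPM under the WT label, 15903 and 21605 under ndhO, and 22353 and 26885 under pgr5, with no member of the list at 0 in any library. They were highest in pgr5 3 and WT 1, the libraries lowest in cysteine synthase, and lowest in ndhO 1 and WT 3, the libraries highest in it. The 14 mesophyll genes summed to between 71094 and 85083 CPM under WT, 67785 and 95522 under ndhO, and 64796 and 86012 under pgr5. Of these, 1 gene was at 0 in 4 of the libraries. The 28 photosystem and antenna genes summed to between 56083 and 102090 CPM and were lowest in WT 3, ndhO 1 and pgr5 2. The 14 clock genes had a median of -0.04 under ndhO and -0.02 under pgr5, both relative to WT. The 11 vascular genes had medians of -0.44 and -0.18, the 74 epidermis genes 0.21 and -0.02, and the 32 genes of dividing cells -0.01 and 0.09, and edgeR called 0 genes of any of these lists. The part of these cells in the results was not tested, and in RNA of whole leaf discs fewer cells of a type and less RNA per cell cannot be told apart.

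Genes around the pathway were taken from 4 further word lists. The nitrogen signalling list, with NLP and HHO transcription factors and other nitrate-related genes, had 0 of 13 genes past edgeR's adjusted threshold in each comparison, with a median of 0.03 for ndhO against WT, -0.06 for pgr5 against WT, and -0.12 for pgr5 against ndhO. The list of enzymes that pass ammonium nitrogen on, such as aminotransferases and urea cycle enzymes, had 0 of 29 tested genes called and medians of -0.02, -0.09 and -0.10 in the same order. Ferredoxin-NADP reductases and enzymes of the molybdenum and siroheme cofactors had 0 of 10 called and medians of 0.08, -0.14 and -0.13. Genes of sulfur use, for methionine, glutathione and sulfated compounds, had 0 of 30 called and medians of -0.01, -0.07 and -0.06.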

How the data were processed

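The 9 libraries (3 per label) were made from leaf polyadenylated RNA with a strand-marking kit, per the labels' protocols. Of software, limma 3.62.2, edgeR 4.4.1, StringTie 2.2.3, Trim Galore 0.6.7 and FastQC 0.11.9 appear in the submitters' processing notes. The sources used here do not give the aligner, the genome build or whether counting used strand, and coordinates are left out. In the 1 table the authors deposited, 17987 genes have whole-number counts per library, per the file headers, and every test here used these counts as they stand. Corrected log2 CPM and the authors' log2 fold changes are in the same table, per the file headers, with no statement of what was corrected. Its t and B columns were read as a deposited score, and its p-values, raw and adjusted, are the authors' own. Count columns of ndhO and pgr5 carry an unexplained extra number and were assigned by label and last number.

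Tests ran in R 4.3.3 with edgeR 4.0.16, with TMM scaling, the default low-count filter (17970 genes kept) and robust quasi-likelihood tests in 1 fit of all 9 libraries on the label. Benjamini-Hochberg adjustment covered all genes of a comparison, with a threshold of 0.05. The procedure was tested on simulated data. Alternatives were DESeq2 1.42.0, limma-voom (3.58.1), DESeq2 size factors, no filter, only the labels compared, a block for the replicate number, and each library left out. An exact permutation test of 3 against 3 libraries cannot go below 0.1 and was not used. Class correlations used log2 of summed CPM and enumerated all pairings with scipy 1.17.1. The labels call replicates biological, and 3 libraries a label limit the precision.

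The members, classes, pairs and lists were chosen with earlier results of these data known. Named genes are the edited genes, members past the threshold, the members with the most counts in each class (the first, and the second in classes of 4 or more), the 3 largest fold changes per comparison among members with at least 1 CPM on average, and the 3 widest highest-to-lowest ratios among members with at least 1 CPM in every library. LOC117859244, LOC117848181, the neighbours of named genes and others marked in the text were chosen outside this rule, after their values were seen. After the data were seen, the list words NIN-like, LUX and SGR were limited to whole words, because they matched parts of unrelated words. Gene order came from RefSeq (GCF_005286985.2) and all 103 members matched. Members of gene families may share reads.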

Additional observations from a re-analysis of the deposited data

Results flagged for a closer look

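The authors' deposited table calls 1 of the 103 members for pgr5 against WT, in a comparison where it calls 2.51% of all genes, and none for ndhO against WT, where it calls 0% of all genes. The member is the NPF8.3-like gene LOC117854966, with a log2 fold change of 4.23 and an adjusted p of 0.0227 in the authors' deposited table. It drew attention because the deposited statistics are not used in any comparison above. The deposited counts of this gene were 14, 18 and 16 in the libraries labelled WT, 27, 15 and 0 in those labelled ndhO, and 4, 17 and 12 in those labelled pgr5. On those counts edgeR gave a log2 difference of -0.62 for pgr5 against WT with an adjusted p of 1.00, the opposite direction. The sign for pgr5 against WT also differed for NRT2.4 (LOC117854922), at -1.10 in the authors' values and 0.53 by edgeR here. It was shared for the cysteine synthase-like gene LOC117851469, at 2.15 and 1.49. Signs were not counted over all members. What was corrected in the authors' values is not stated in the file headers, and the cause of these differences was not tested.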

How the results depend on the processing

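Under the alternatives, 233 values of summary results and 493 of single members kept their direction and their side of the threshold. In every alternative fit 0 members were called. DESeq2 called 17, 6 and 14 genes over all genes, where edgeR called 0. With single libraries left out, the members' median for ndhO against WT ran from 0.029 to 0.11, the latter without WT 3. The NPF3.1-like gene LOC117849868 ran from -2.03 to 0.16 (ndhO against WT, reversed without WT 1) and from -0.18 to 2.33 (pgr5 against ndhO, reversed without pgr5 3). In the same way r for nitrite reductase and glutamate synthase ran from 0.60 to 0.92, the latter without pgr5 2 with an adjusted exact permutation p of 0.0185. That for asparagine synthetase and glutamate dehydrogenase ran from -0.92 to -0.80, the call ending without WT 1, and was -0.79 without the 2 farthest libraries. That for serine acetyltransferase and cysteine synthase ran from 0.78 to 0.91, the call ending without WT 1 (0.86) and without pgr5 3, and was 0.74 without the 2 farthest libraries. That for nitrate and adenylylsulfate reductase ran from -0.13 to 0.32, with -0.08 without WT 3, and that for ATP sulfurylase and adenylylsulfate reductase was -0.049 without the 2 farthest libraries. The Spearman calls of the 2 called pairs were each lost in 6 of 9 such fits. The causes were not tested. Replicate numbers were not taken as pairs: same-numbered libraries had correlations of deviations from -0.52 to 0.10. With the replicate number as a block, 0 members and 0 genes were called, the medians were 0.06, -0.04 and -0.06, and 2, 1 and 4 members had an unadjusted p under 0.05 (1.81%, 1.37% and 1.56% of all genes). That count was 3, 5 and 5 by DESeq2 (3.53%, 2.44% and 3.23% of all genes) and 2, 2 and 5 with only the labels compared (2.78%, 1.55% and 2.46%). Low NdhO or PGR5 outside the label naming it touched 6 of 9 libraries, so the fits between labels left out single libraries only.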

Other observations

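Genes near the pathway held a few differences that did not pass the adjusted test and were chosen after their values were seen. For ndhO against WT, edgeR's unadjusted p was under 0.05 for 1 of 13 nitrogen signalling and 2 of 29 ammonium genes. It was so for 1 of 10 cofactor and 1 of 30 sulfur genes, and for 2.74% of all genes. For pgr5 against WT 1 of the 29 reached it and 0 of the other lists, against 2.06% of all genes. Over all genes, libraries did not overlap for 4.56% higher and 4.07% lower under ndhO than WT, and for 2.94% lower under pgr5. Urease (LOC117852328), which releases ammonium from urea, was at 29.6, 31.5 and 34.4 CPM in the libraries labelled WT, at 26.8, 25.2 and 17.8 CPM under the ndhO label, and at 18.8, 17.9 and 21.6 CPM under the pgr5 label. All libraries labelled WT lay above the other 6, and relative to WT the log2 difference was -0.45 under ndhO and -0.71 under pgr5 (edgeR unadjusted p = 0.0317 and 0.00283). The HHO5-like transcription factor LOC117840747, of a family that in Arabidopsis includes repressors of nitrate and phosphate genes, was at 82.1, 92.2 and 65.8 CPM under WT, at 122, 117 and 102 CPM under ndhO, and at 81.4, 85.5 and 77.1 CPM under pgr5. All libraries labelled ndhO lay above the other 6, by 0.51 on the log2 scale against WT (edgeR unadjusted p = 0.00750).

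The thiosulfate sulfurtransferase 16-like gene LOC117851234 was at 65.8, 7.35 and 17.3 CPM under WT, at 1.65, 4.03 and 6.997 CPM under ndhO, and at 4.06, 8.84 and 14.6 CPM under pgr5. The libraries labelled ndhO lay below all those labelled WT, WT 1 stood apart at the top, and the log2 difference was -2.84 (edgeR unadjusted p = 0.0131).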
